A study of Mus musculus with 121 samples.

Results

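The comparison set livers of KO mice against livers of heterozygous (HET) mice after a high-fat diet (HFD). All animals were C57BL/6 mice given the diet labelled HFD 45 percent for 18 weeks from 8 weeks of age, and the groups differed in the genotype of a gene that the labels write as PEP and that is taken here, from knowledge of the study, to be Pepd. Pepd encodes prolidase, a peptidase that frees proline and hydroxyproline from the dipeptides left by collagen breakdown. The 9 libraries labelled KO were set against 10 of the 11 labelled HET, and 1 library labelled HET was left out because its Pepd was at the KO level. These 19 libraries were chosen from 75 of liver among 121 labelled samples of liver and gonadal adipose tissue from KO, HET and wild-type (WT) mice fed chow, HFD, an Alios diet or a diet labelled Control. For the allele, sex and caging of the mice, nothing is given in the sources used here.

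Levels are CPM (counts scaled to a common library total) on TMM-scaled library sizes, changes are log2 fold changes of KO minus HET with their standard error (SE), and adjusted p-values come from edgeR's quasi-likelihood test with Benjamini-Hochberg adjustment over all 11111 genes that passed a filter on low counts. Genes with an adjusted p under 0.05 are referred to as called. Total counts of the 19 libraries ran from 1027087 to 7215503 with a median of 3856930. The hepatocyte product Alb had no value below 64752 CPM. Of skeletal muscle genes, Acta1 was at 0 in all 19, while Ckm reached 11.8 CPM in KO and 122.7 CPM in HET libraries. The 0 for Acta1 therefore does not show that muscle was absent. Marker sums, here and below, are CPM of all counts in a library, without the filter or TMM scaling. Some libraries stood apart. HET 5 had the lowest total and skeletal muscle markers summing to 2105 CPM, against at most 173 CPM in KO libraries and 47.4 CPM in the other HET libraries. KO 7 carried B and plasma cell markers at 1056 CPM and T and NK cell markers at 112 CPM, the highest of both. KO 2 had a neutrophil marker sum of 685 CPM against at most 88.3 CPM in HET libraries, on a list that holds Lcn2, which hepatocytes also make, while the neutrophil gene S100a8 reached at most 1.74 CPM in any KO library. HET 4 and HET 9 had the highest sums of lipid-associated macrophage markers (739 and 731 CPM) and of cholangiocyte markers (360.1 and 427 CPM). Of the 68 named genes called besides Pepd, 50 stayed called without KO 2, KO 7 and HET 5, and 39 without HET 4 and HET 9. Those that did not are named beside their results, apart from Serpina1a. In the same order, the edgeR adjusted p was 0.16 and 0.21 for Serpina1a, 0.067 and 0.23 for Gsta1, and 0.062 and 0.082 for Mgst3. It was 0.12 and 0.15 for Edem1, 0.096 and 0.13 for Selenos, and 0.56 and 0.097 for Scara5. For Saa3 without HET 4 and HET 9 it was 0.12.

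Pepd (ENSMUSG00000063931, chromosome 7 from 34912379 to 35044708, plus strand, GRCm38) chose the library that was left out, so its values are a description. Its lowest, median and highest levels were 0.869, 1.71 and 2.81 CPM in KO livers, against 15.1, 25.6 and 35.4 CPM in the 10 HET livers. The library labelled HET that was left out, HET 8, had 2 Pepd counts, or 1.22 CPM, inside the KO range and below the lowest HET library. Its total was 1623611 counts.

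Liver handles lipids and foreign compounds in the same cells. Nuclear receptors such as CAR, PXR and PPAR alpha set the levels of cytochromes P450 and of fatty acid enzymes, SREBP1 and ChREBP set those of fatty acid synthesis, and growth hormone sets a group of genes that differ between the sexes. Stellate cells beside the hepatocytes lay down collagen, and a high-fat diet loads hepatocytes with triglyceride in droplets coated by perilipins.

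On HFD, KO livers had much higher levels of the drug-metabolizing cytochromes Cyp2b10 and Cyp2c29 than HET livers. Of 23 fatty acid synthesis genes 5 rose, while 11 of 31 matrix genes, 5 of 16 lipid droplet genes and 4 of 32 fatty acid oxidation genes fell. In all, 145 genes rose and 180, Pepd included, fell, so that 2.93% of genes were called (1.31% higher and 1.62% lower). The median log2 change over all genes was 0.01. In 24 genes (0.216%) the KO and HET libraries did not overlap at all. The count of called genes was 264 with HET 8 kept as labelled, 229 without KO 2, KO 7 and HET 5, and 130 without HET 4 and HET 9, the last being more than 1.5 times below the full count. Leaving out HET 2, HET 4, HET 9 or HET 10 alone gave 208, 202, 211 or 214 called genes. The labels give each mouse a number, and in these libraries the numbers fall into 2 ranges with a gap between them. These ranges are called runs here. The split was made from the numbers alone, and the labels do not say whether it marks cohorts or batches. Within the run of lower numbers (5 KO and 6 HET) 127 genes were called, and within the run of higher numbers (4 KO and 4 HET) 2 were called. Within the run of lower numbers Cyp2b10 had a log2 change of 5.09 and Cyp2c29 of 2.27 (edgeR adjusted p = 6.5e-07 and 0.0050), and within the run of higher numbers they had 5.83 and 2.63 (edgeR adjusted p = 0.061 and 0.041). In bulk tissue, fewer cells of a type and less RNA per cell cannot be told apart.

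**Figure D1:**
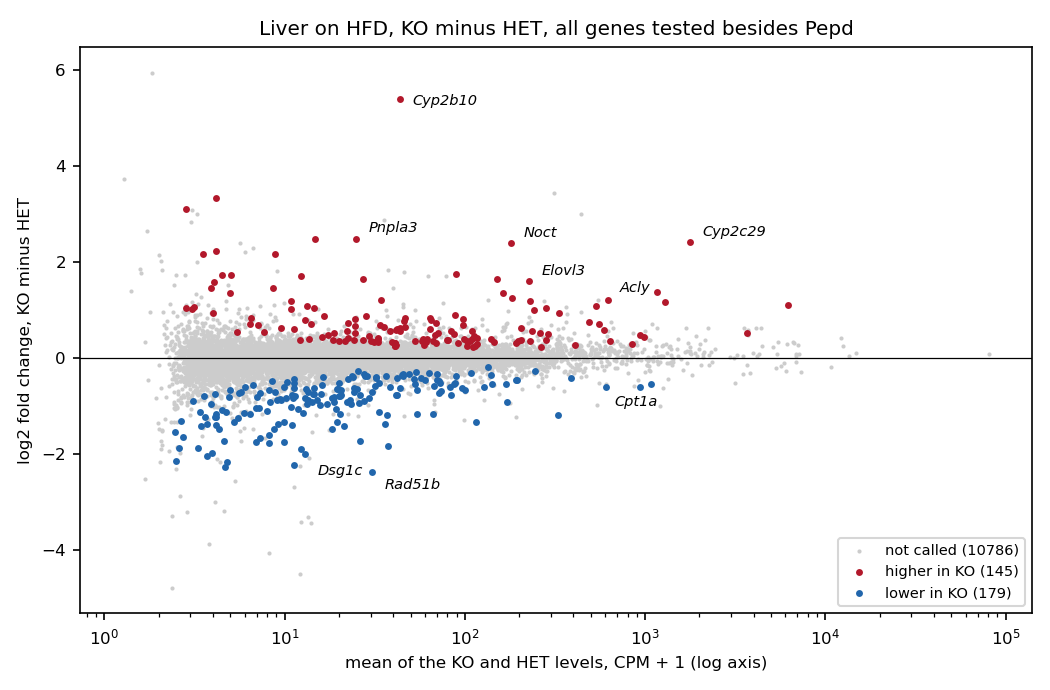
Log2 fold change of KO minus HET against the mean level (CPM + 1, log axis) for all genes tested besides Pepd, 1 point a gene, with called genes in red (145 higher in KO) and blue (179 lower in KO). Cyp2b10 stands above all other called genes with a log2 change of 5.40.

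Cytochromes P450 of the Cyp2 families oxidise drugs, steroids and fatty acids, and Cyp2b10 is the classical target of the receptor CAR in mouse liver. Cyp2b10 (ENSMUSG00000030483, chromosome 7 from 25897620 to 25926624, plus strand) had lowest, median and highest levels of 20.6, 70.7 and 164 CPM in KO livers, against 0, 2.31 and 3.94 CPM in HET livers. Every KO library lay far above every HET library. The log2 change was 5.40 ± 0.45 (SE; 42.3-fold, edgeR adjusted p = 7.4e-12). Cyp2c29 (ENSMUSG00000003053, chromosome 19 from 39269405 to 39330713, plus strand), a fatty acid epoxygenase, ran over 1524, 2945 and 4702 CPM in KO livers, against 274, 507 and 1018 CPM in HET livers. Here too the groups did not overlap (log2 2.40 ± 0.27, edgeR adjusted p = 4.7e-08). Cyp2c55 was at 2.29, 12.0 and 24.4 CPM in KO livers, against 0.901, 3.06 and 4.21 CPM in HET livers, and 8 of 9 KO libraries lay above every HET library (log2 2.16 ± 0.33, edgeR adjusted p = 7.9e-05).

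Of 28 xenobiotic cytochromes P450 tested, 6 rose and 1 fell, and their median log2 change was 0.07 beside 0.01 over all genes, so the rise was carried by some members. The others that rose were Cyp2c50 (log2 1.09), Cyp2c54 (log2 1.65) and the caffeine-oxidising Cyp1a2 (log2 1.04 ± 0.30, edgeR adjusted p = 0.045). Cyp1a2 was not called without KO 2, KO 7 and HET 5 (edgeR adjusted p = 0.069), without HET 4 and HET 9 (0.17) or with HET 8 kept (0.11). Cyp2a22 fell (log2 -1.74, edgeR adjusted p = 0.035). With HET 8 kept as labelled 3 of the 28 rose, and without HET 4 and HET 9 again 3 rose. Reads of the near-identical Cyp2b and Cyp2c copies may have been split or lost in counting, so the share of each copy is uncertain. Among 25 receptors and conjugating enzymes, the glucuronosyltransferase Ugt2b1 rose (log2 0.75 ± 0.20, edgeR adjusted p = 0.029) and the fatty acid receptor Ppara fell, with 89.8, 145 and 177 CPM in KO livers against 157, 199 and 266 CPM in HET livers (log2 -0.56 ± 0.14, edgeR adjusted p = 0.023). Ppara was not called without KO 2, KO 7 and HET 5 (edgeR adjusted p = 0.099), and Ugt2b1 was not called without HET 4 and HET 9 (0.14) or with HET 8 kept (0.13). Of 28 glutathione transferases and NRF2 targets, Gstp1 rose and Gsta1, Gstt2 and Mgst3 fell. Without KO 2, KO 7 and HET 5, and again without HET 4 and HET 9, 0 of the 28 were called lower by edgeR and 1 higher, and Gsta1 was called in 9 of 19 refits that left out 1 library each.

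The 250 bases before the RefSeq start of both leading cytochromes, from RefSeq promoters of GRCm38.p6, are shown because these 2 genes carry the clearest change. They are read 5′ to 3′ on the gene's strand, with any AGGTCA, the half-site that nuclear receptors share, in capitals. Cyp2b10 lies at chr7:25897408-25897657 (plus strand) and Cyp2c29 at chr19:39286835-39287084 (plus strand).
Cyp2b10: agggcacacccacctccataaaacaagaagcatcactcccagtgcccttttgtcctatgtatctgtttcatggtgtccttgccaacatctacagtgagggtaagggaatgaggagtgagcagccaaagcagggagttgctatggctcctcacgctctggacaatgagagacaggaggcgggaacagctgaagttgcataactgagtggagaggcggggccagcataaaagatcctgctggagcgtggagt
Cyp2c29: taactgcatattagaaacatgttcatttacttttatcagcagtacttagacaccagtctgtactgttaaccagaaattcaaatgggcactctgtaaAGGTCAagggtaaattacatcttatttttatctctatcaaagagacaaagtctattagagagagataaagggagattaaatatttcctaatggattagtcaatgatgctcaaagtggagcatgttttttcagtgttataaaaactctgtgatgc
The half-site, searched on both strands, was in the Cyp2c29 window and is in 16.3% of 32851 promoters of 300 bases. The Cyp2b10 window holds no AGGTCA, which says only that these letters are not in it.

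**Figure D2:**
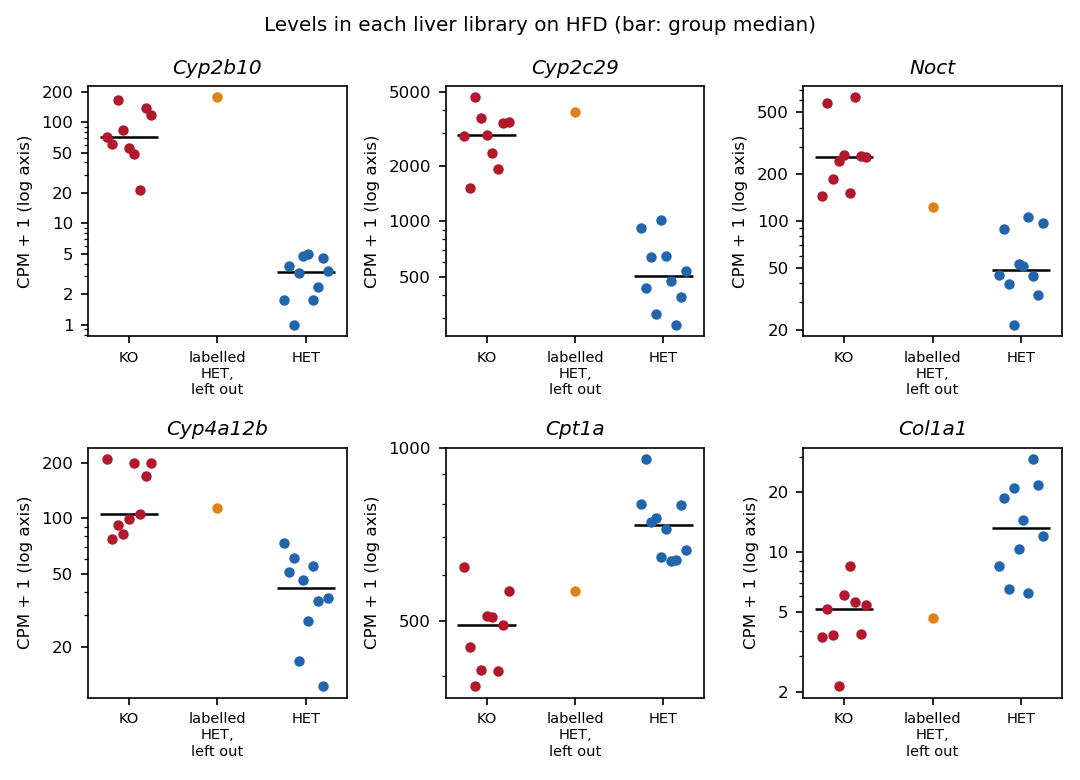
Levels (CPM + 1, log axis) of 6 genes in each liver library on HFD, with KO libraries in red, the library labelled HET that was left out in orange and HET libraries in blue, and bars at group medians. In Cyp2b10, Cyp2c29, Noct, Cyp4a12b and Cpt1a no KO library overlaps a HET library, while Col1a1 overlaps in 1 KO library.

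The library that the labels call HET and that was left out entered none of these tests, so its levels of other genes are separate measurements. Its Cyp2b10 was 174 CPM, above all 9 KO and all 10 HET libraries. Its Cyp2c29 stood at 3928 CPM and its Cyp2c55 at 21.9 CPM, each above all 10 HET libraries and above 8 of 9 KO libraries. Its Cpt1a, at 563 CPM, and its Col1a1, at 3.65 CPM, lay below every HET library. Its Acly (308 CPM) and Pnpla3 (3.65 CPM) lay inside the HET range. Over the genes called besides Pepd it was nearer to the KO mean for 216 (66.7%). Each KO library, set against group means without itself, was nearer to KO for 60.8% to 92.9% of them, and each HET library for 3.4% to 35.5%, although those libraries helped to choose the genes. With this library counted as HET, Cyp2b10 had a log2 change of 2.72 and Cyp2c29 of 1.78, both still called (edgeR adjusted p = 0.013 and 0.0027).

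Fatty acid synthesis turns cytosolic citrate into palmitate through ATP citrate lyase (Acly), acetyl-CoA carboxylase (Acaca) and fatty acid synthase (Fasn), and elongases lengthen the product. Acly had 196, 847 and 1594 CPM in KO livers, against 252, 378 and 516.9 CPM in HET livers. In 7 of 9 KO libraries it lay above every HET library, while KO 2 lay below all of them (log2 1.21 ± 0.28, edgeR adjusted p = 0.010). Acaca was at 55.0, 130 and 203 CPM in KO livers, against 42.4, 67.5 and 100.8 CPM in HET livers (log2 0.81 ± 0.18, edgeR adjusted p = 0.0067). The elongase Elovl3 ran over 188, 316 and 577 CPM in KO livers, against 35.6, 91.6 and 327 CPM in HET livers (log2 1.60 ± 0.34, edgeR adjusted p = 0.0048). Fasn (log2 1.36, edgeR adjusted p = 0.024) and the elongase Elovl6 (log2 1.18, edgeR adjusted p = 0.029) rose as well, so 5 of 23 genes of this list rose and none fell, with a median of 0.27. Leaving out KO 2, KO 7 and HET 5, 6 rose. Both libraries KO 2 and KO 7 stood at the low end for Acly (196 and 379 CPM) and Acaca (55.0 and 61.1 CPM). Both had B and plasma cell marker sums (434 and 1056 CPM) above every HET library (at most 236 CPM). The part of those markers in these values was not tested.

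Pnpla3, a lipase-related droplet protein that insulin and fatty acid synthesis factors raise, was at 1.14, 30.9 and 105 CPM in KO livers, against 1.61, 4.12 and 18.9 CPM in HET livers. In 5 of 9 KO libraries it lay above every HET library, and KO 2 lay below all (log2 2.48 ± 0.58, edgeR adjusted p = 0.012). Its neighbour and relative Pnpla5 was near the floor, at 0, 2.32 and 9.52 CPM in KO livers, against 0, 0 and 1.33 CPM in HET livers (log2 3.09 ± 0.72, edgeR adjusted p = 0.011). It passed the filter on low counts in 15 of 19 refits that left out 1 library each. With only the KO and HET groups fitted it did not pass, so its change is uncertain.

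Droplet genes went the other way. Of 16 tested, Pnpla3 rose and 5 fell, with a median of -0.50. Plin2, the perilipin that coats hepatocyte droplets, was at 560, 749 and 926 CPM in KO livers, against 773, 1090 and 1511 CPM in HET livers, and 5 of 9 KO libraries lay below every HET library (log2 -0.60 ± 0.17, edgeR adjusted p = 0.034). Hsd17b11, another droplet protein, was at 119, 161 and 193 CPM in KO livers, against 187, 221 and 260.1 CPM in HET livers, with 8 of 9 KO libraries below all HET libraries (log2 -0.47 ± 0.10, edgeR adjusted p = 0.0042). The lipases Lipe (log2 -0.66) and Pnpla2 (log2 -0.44) and the droplet-forming Fitm2 (log2 -0.54) also fell. Plin2 was no longer called with HET 8 kept (edgeR adjusted p = 0.060), without KO 2, KO 7 and HET 5 (0.091) or without HET 4 and HET 9 (0.16). Cidea, which fuses droplets, was not called, at 0, 1.65 and 14.1 CPM in KO livers and 0.957, 22.2 and 40.8 CPM in HET livers (log2 -2.25 ± 0.74, edgeR adjusted p = 0.080), nor was the receptor Pparg (log2 -0.72 ± 0.23, edgeR adjusted p = 0.063). The lipoprotein receptor Vldlr fell, at 1.08, 5.06 and 8.95 CPM in KO livers against 7.01, 16.2 and 19.4 CPM in HET livers (log2 -1.40 ± 0.29, edgeR adjusted p = 0.0040).

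Cpt1a (ENSMUSG00000024900, chromosome 19 from 3322334 to 3385733, plus strand) lets long fatty acids into mitochondria for oxidation. It was at 383.2, 489.5 and 619 CPM in KO livers, against 635, 733 and 957 CPM in HET livers. The groups did not overlap, although the shift was small (log2 -0.61 ± 0.12, 1.53-fold, edgeR adjusted p = 0.0023). Within the list of 32 oxidation genes and PPAR alpha targets, 4 fell and 1 rose, and 31 of the 32 had a negative log2 change (median -0.34). The others that fell were the thioesterase Acot2 (log2 -1.10), the ketone enzyme Bdh1 (log2 -0.42) and the carnitine transferase Crat (log2 -0.63). Without KO 2, KO 7 and HET 5, 2 fell, and without HET 4 and HET 9, 1 fell; Acot2 was not called in the second case (edgeR adjusted p = 0.078).

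**Figure D3:**
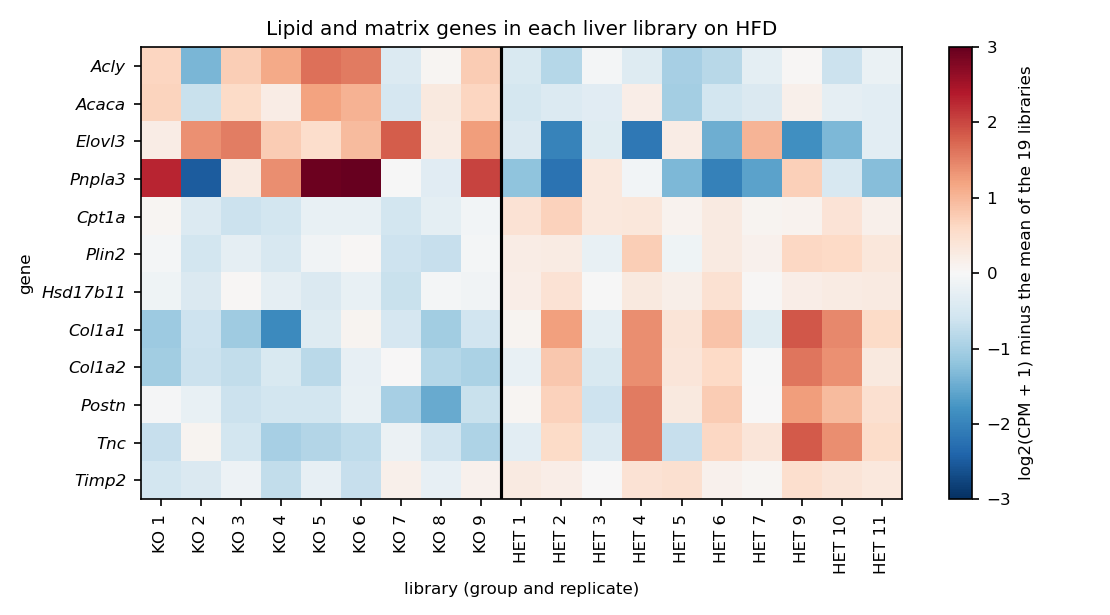
Log2(CPM + 1) of 12 lipid and matrix genes in each of the 9 KO and 10 HET liver libraries on HFD, as the difference from the mean of all 19 (red high, blue low, 1 column a library). Acly and Acaca are low in KO 2 and KO 7 beside other KO libraries, and Col1a1, Col1a2, Postn and Tnc are highest in HET 4, HET 9 and HET 10.

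Cyp4a12a and Cyp4a12b, which hydroxylate fatty acids and are male-biased in mouse liver, rose together. Cyp4a12b was at 76.3, 105 and 209 CPM in KO livers, against 11.3, 40.6 and 72.6 CPM in HET livers, with no overlap (log2 1.75 ± 0.27, edgeR adjusted p = 7.9e-05). The copies are nearly identical, so the split of reads between them is uncertain. Of 27 growth hormone responsive and sex-biased genes, 5 rose and 1 fell (median 0.33). The oxysterol hydroxylase Cyp7b1, the complement component C6 and the serpin Serpina1e (near-identical to its own copies) were among those that rose, beside Elovl3 and Cyp4a12a. The female-biased oxidase Hao2 fell, at 0, 1.05 and 4.95 CPM in KO livers against 1.72, 5.98 and 15.4 CPM in HET livers (log2 -2.17 ± 0.48, edgeR adjusted p = 0.0085). Without KO 2, KO 7 and HET 5, 3 rose and 2 fell, and without HET 4 and HET 9, 3 rose and 1 fell. Cyp7b1 was not called in either case (edgeR adjusted p = 0.057 and 0.13).

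Collagens and other matrix genes were lower in KO livers. Of 31 tested, 11 fell and 1 rose, 29 of 31 had a negative log2 change, and the median was -0.51. Col1a1 (ENSMUSG00000001506, chromosome 11 from 94936224 to 94953042, plus strand) was at 1.13, 4.198 and 7.56 CPM in KO livers, against 5.22, 12.2 and 28.4 CPM in HET livers. In 8 of 9 KO libraries it lay below every HET library (log2 -1.76 ± 0.36, edgeR adjusted p = 0.0031). Col1a2, the partner chain of type I collagen, was at 7.86, 9.90 and 17.4 CPM in KO livers, against 12.3, 24.7 and 55.1 CPM in HET livers (log2 -1.42 ± 0.26, edgeR adjusted p = 0.0010). Postn (log2 -1.33 ± 0.24), a matrix protein of remodelling tissue, and Tnc (log2 -2.04 ± 0.37), a matrix glycoprotein of injured tissue, fell as well, as did Col3a1, Col6a1, Col6a3, Col14a1, Sparc, Lum and Thbs1. Tnc was of low level, at 0.563, 0.924 and 2.29 CPM in KO livers, against 0.943, 3.61 and 10.2 CPM in HET livers. With only the KO and HET groups fitted, Tnc did not pass the filter on low counts. The exception was the basement membrane collagen Col15a1, which rose (log2 0.87, edgeR adjusted p = 0.018). Among enzymes of the matrix, the collagen-trimming Adamts2, the inhibitor Timp2 (log2 -0.56 ± 0.14) and the macrophage protease Mmp12 (log2 -1.74) fell. Without HET 4 and HET 9 none of the 3 was called by edgeR (log2 -0.55, -0.50 and -1.11, with edgeR adjusted p = 0.23, 0.10 and 0.28). Adamts2 was called in 8 of 19 refits that left out 1 library each.

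Marker sums of several cell types are given beside the matrix genes. Stellate cell markers summed to 578, 667 and 770.5 CPM in KO livers, against 641, 819 and 1094 CPM in HET livers, and 1 of 18 of them, the contractile protein Tagln, fell (median -0.31), and Tagln was not called without HET 4 and HET 9 (edgeR adjusted p = 0.076). Defining genes were present in every library, with Lrat at 17.7 to 30.5 CPM in KO livers and 22.9 to 61.1 CPM in HET livers. Endothelial markers summed to 558, 690 and 756 CPM in KO livers, against 703, 804 and 888 CPM in HET livers, with 0 of 21 called by edgeR or DESeq2 (7 at an unadjusted p under 0.05), and lipid-associated macrophage markers to 190, 283 and 332 CPM in KO livers, against 205, 362 and 739 CPM in HET livers, with 1 of 15, Mmp12, called. Kupffer cell and macrophage markers summed to a median of 803 CPM in KO livers and 840.0 CPM in HET livers, with a median log2 change of 0.14. The log2 change was negative in 17 of 18 stellate cell markers and 20 of 21 endothelial markers. It was negative in 12 of 15 lipid-associated macrophage markers and in 7 of 24 Kupffer cell and macrophage markers. The part of cell numbers in the matrix result was not tested. Without HET 4 and HET 9 the matrix list had 5 genes lower and 1 higher with a median of -0.35, and Col1a1 stayed called (log2 -1.42, edgeR adjusted p = 0.036); without KO 2, KO 7 and HET 5 it had 11 lower and 1 higher.

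**Figure D4:**
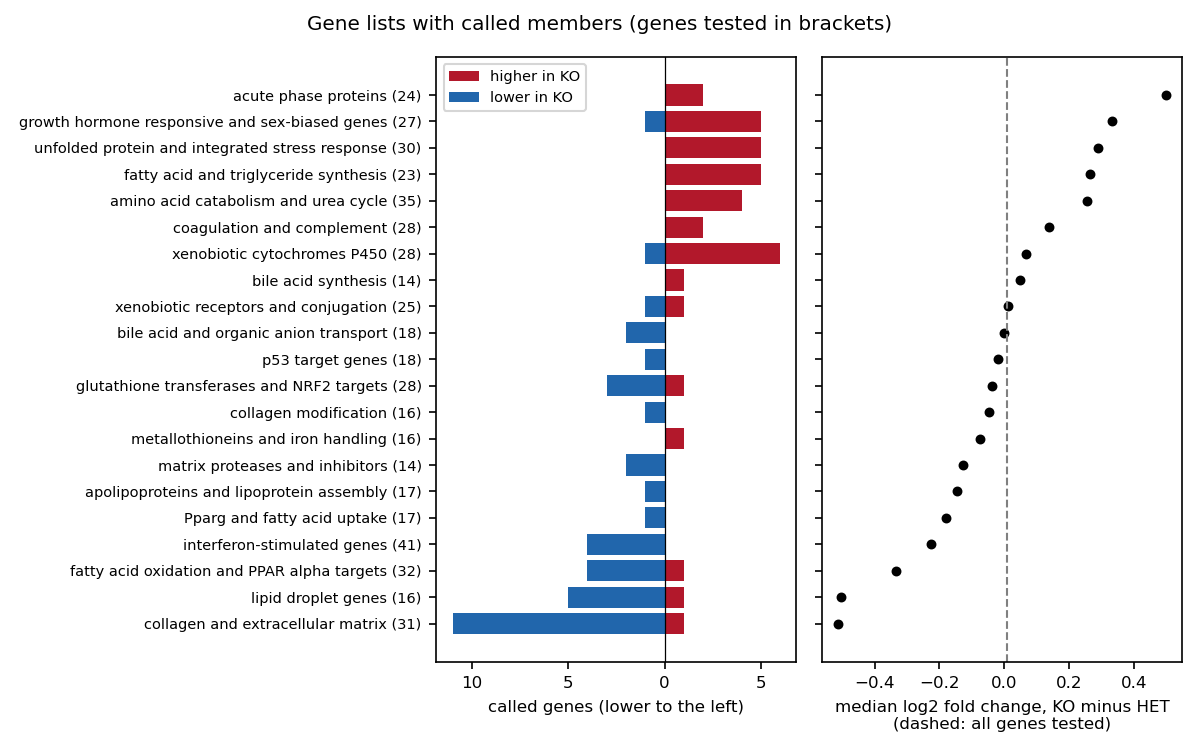
Called genes (left) and median log2 fold change of KO minus HET (right, dashed line at the median of all genes tested) for pathway lists with at least 1 called member besides Pepd, with the number of genes tested in brackets. Collagen and extracellular matrix genes have 11 lower and 1 higher, and xenobiotic cytochromes P450 have 6 higher and 1 lower.

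The unfolded protein response refills the endoplasmic reticulum with chaperones when secretory load rises. Of 30 genes of this and the integrated stress response, 5 rose and none fell, with a median of 0.29. Hspa5 (BiP), the main chaperone, rose by a log2 change of 0.47 (edgeR adjusted p = 0.042) and the chaperone Hyou1 by 0.62 ± 0.16, with 141, 250 and 308 CPM in KO livers against 76.5, 162 and 241 CPM in HET livers (edgeR adjusted p = 0.023). Dnajb11, Edem1 and Selenos, which serve folding and disposal of proteins, were the others. Of the 30 genes, 1 was called without KO 2, KO 7 and HET 5, and 0 were called without HET 4 and HET 9, where Hyou1 had an edgeR adjusted p of 0.11. Edem1 and Selenos were not called in either case. Under DESeq2 7 were called.

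Because chaperone genes share a known promoter element, the 250 bases before the RefSeq start of Hspa5 are shown (chr2:34771840-34772089, plus strand, GRCm38.p6), with the endoplasmic reticulum stress element in capitals.
Hspa5: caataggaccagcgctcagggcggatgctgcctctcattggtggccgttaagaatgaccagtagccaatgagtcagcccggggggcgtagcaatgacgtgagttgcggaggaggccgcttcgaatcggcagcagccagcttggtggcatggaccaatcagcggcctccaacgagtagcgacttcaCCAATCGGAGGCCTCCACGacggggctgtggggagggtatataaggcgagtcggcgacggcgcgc
The element was searched on both strands as CCAAT and CCACG 9 bases apart, and it is in 0.119% of the 32851 promoters of 300 bases. Of the 30 genes tested, 27 had a promoter, and 8 of those held the element. Of the 4 called genes with a promoter, Hspa5 alone held it.

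Interferon-stimulated genes, which restrain viruses, included 4 of 41 that fell and none that rose (median -0.23). The deconjugase Usp18 was at 6.29, 8.38 and 12.7 CPM in KO livers, against 9.43, 14.6 and 21.7 CPM in HET livers (log2 -0.85 ± 0.17, edgeR adjusted p = 0.0029). Irf7 (log2 -0.65 ± 0.17), Ifi44 (log2 -1.18 ± 0.28) and Oasl2 (log2 -0.72) were the others. Without KO 2, KO 7 and HET 5, 6 fell, and without HET 4 and HET 9, 1 fell, with Irf7 at an edgeR adjusted p of 0.12 and Ifi44 at 0.10. Of 15 class I and 8 class II antigen presentation genes, 24 Kupffer cell and macrophage markers, 14 cytokines and chemokines, 17 cell cycle genes, 20 insulin signalling genes, 23 cholesterol synthesis genes and 31 oxidative phosphorylation subunits, 0 were called by edgeR or by DESeq2, and each list had at most 3 genes at an unadjusted p under 0.05.

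Acute phase proteins had 2 of 24 higher, Saa3 and Serpina3m, and none lower (median 0.50). Without KO 2, KO 7 and HET 5, 0 were called by edgeR and the median was -0.21, and without HET 4 and HET 9, 0 were called and the median was 0.50. Saa3 was at 4.16, 8.44 and 60.5 CPM in KO livers, against 1.89, 5.17 and 8.70 CPM in HET livers (log2 1.70 ± 0.48, edgeR adjusted p = 0.038). Its high values were those of KO 2 and KO 7, and without these and HET 5 it was not called (log2 0.47, edgeR adjusted p = 0.71). Scara5, a ferritin receptor, rested on KO 2 at 152 CPM, against 13.2 CPM in the highest HET library (log2 2.47 ± 0.67, edgeR adjusted p = 0.030), and without KO 2 its adjusted p was 0.47 (log2 0.92).

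Noct (ENSMUSG00000023087, chromosome 3 from 51224447 to 51251644, plus strand), a rhythmic phosphatase of nucleotide cofactors, was at 145, 256 and 624.6 CPM in KO livers, against 20.5, 47.4 and 105 CPM in HET livers. The groups did not overlap (log2 2.39 ± 0.41, edgeR adjusted p = 5.8e-04), and without KO 2, KO 7 and HET 5, of which both KO libraries were the highest, the change was 1.90 (edgeR adjusted p = 0.0090). Of 18 circadian clock genes 0 were called by edgeR or DESeq2, with 5 at an unadjusted p under 0.05. Amino acid enzymes had 4 of 35 higher and none lower (median 0.26), with the tyrosine aminotransferase Tat at 987, 1641 and 2846 CPM in KO livers, against 323.6, 875 and 1270 CPM in HET livers (log2 1.17 ± 0.29, edgeR adjusted p = 0.017). Kynu, of tryptophan breakdown, rose by 0.49 ± 0.10 (edgeR adjusted p = 0.0023), and Hgd and Got1 rose too. Of the 35, 2 were higher without KO 2, KO 7 and HET 5 (Hgd edgeR adjusted p = 0.064) and 1 without HET 4 and HET 9 (Tat 0.089 and Hgd 0.11). Of 9 proline metabolism genes 0 were called by edgeR or DESeq2 (1 at an unadjusted p under 0.05), and among 10 proline peptidases Pepd alone was.

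Several genes that fell most have no such list. Rad51b, a recombination repair gene, was at 1.44, 9.07 and 24.96 CPM in KO livers, against 7.85, 41.7 and 108 CPM in HET livers (log2 -2.38 ± 0.44, edgeR adjusted p = 0.0010), with the highest HET values again in HET 4 and HET 9. Without those 2 libraries it was still lower (log2 -1.90, edgeR adjusted p = 0.020). Themis, known from T cell development, was at 0.869, 3.03 and 9.33 CPM in KO livers, against 2.87, 18.6 and 25.8 CPM in HET livers (log2 -2.23 ± 0.41, edgeR adjusted p = 0.0010), while 0 of 5 T and NK cell markers were called by edgeR or DESeq2 (3 at an unadjusted p under 0.05). Those 5 markers all had a positive log2 change, unlike Themis, with a median of 0.67. Without KO 2, KO 7 and HET 5 the median was 0.16 over the 3 markers still tested. Dsg1c, a desmosomal cadherin, did not overlap between groups (log2 -2.01 ± 0.29, edgeR adjusted p = 2.3e-05), with 3.77, 4.06 and 7.31 CPM in KO livers against 7.46, 18.0 and 31.4 CPM in HET livers. The organic anion carrier Slco1a4 fell to a median of 31.3 CPM in KO livers, against 81.6 CPM in HET livers (log2 -1.16 ± 0.25, edgeR adjusted p = 0.0048). The growth factor receptor Egfr was not called, at 218, 468 and 920 CPM in KO livers and 68.1, 229 and 655 CPM in HET livers (log2 0.91 ± 0.34, edgeR adjusted p = 0.13).

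Among genes of low level, Obp2a, an odorant-binding protein, was at 0, 1.05 and 20.1 CPM in KO livers, against 0, 0.321 and 2.83 CPM in HET livers (log2 3.33 ± 0.71, edgeR adjusted p = 0.0054). The transcription factor Pitx3 was at 0.924, 5.06 and 12.7 CPM in KO livers, against 0, 0.429 and 3.73 CPM in HET livers (log2 2.22 ± 0.49, edgeR adjusted p = 0.0067). Its gene (minus strand, from 46135685) overlaps the end of Elovl3 (plus strand, to 46135694), so its values are uncertain, and the part of Elovl3 reads in them was not tested. The endocytic receptor Lrp2 (log2 2.17 ± 0.54) and Chic1 (log2 1.73 ± 0.36) rose too. Those that fell were the antimicrobial peptide Defb1 (log2 -2.27 ± 0.42), the guidance protein Sema3b (log2 -1.98 ± 0.37), the adhesion receptor Adgrv1 (log2 -1.90 ± 0.31), Fam83a (log2 -1.88 ± 0.48), the matrix protein Npnt (log2 -1.87 ± 0.50), the lipid-binding Osbpl3 (log2 -1.83 ± 0.39) and Nxph1 (log2 -1.78 ± 0.42). Adgrv1 and Sema3b were each below every HET library in 8 of 9 KO libraries, while Fam83a overlapped in all. Without HET 4 and HET 9, Fam83a was not called (log2 -0.87, edgeR adjusted p = 0.40), nor was it with HET 4, HET 9 or KO 8 alone left out, and Lrp2 was not called either (0.087). Npnt did not pass the filter on low counts without either set of libraries, and it was not called without KO 8. With only the KO and HET groups fitted, Obp2a, Pitx3, Lrp2, Sema3b, Fam83a and Npnt did not pass that filter. Without KO 2, KO 7 and HET 5, Pitx3 and Nxph1 were not called (edgeR adjusted p = 0.057 and 0.051), and with HET 8 kept Obp2a was not called (0.21). Other named genes that changed were the manganese exporter Slc30a10 (log2 0.83 ± 0.16), the complement protein C9 (log2 0.70 ± 0.20) and Serpina3m (log2 0.58 ± 0.16), which rose, and Apoa5 (log2 -0.54 ± 0.13), which aids triglyceride clearance, the drug exporter Abcb1a (log2 -1.05 ± 0.25), the p53 target Perp (log2 -0.31 ± 0.08) and Anxa4 (log2 -0.32 ± 0.08), which fell. Without HET 4 and HET 9, C9 (edgeR adjusted p = 0.097), Serpina3m (0.17), Abcb1a (0.10), Perp (0.10) and Anxa4 (0.089) were not called. Nor were C9 (0.19), Serpina3m (0.15) and Perp (0.17) without KO 2, KO 7 and HET 5. Perp was the only 1 of 18 p53 targets called, and 9 of these had a positive and 9 a negative log2 change (median -0.02). Anxa4 was the only 1 of 5 cholangiocyte markers called.

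Over all genes tested 2.93% were called. By chromosome, 26 of 413 genes tested on chromosome 19 were called (6.30%), the highest share of any chromosome. That chromosome carries the similar copies Cyp2c29, Cyp2c50, Cyp2c54 and Cyp2c55, and Elovl3, Cpt1a and Vldlr. On chromosome 7, 29 of 820 genes besides Pepd were called (3.54%). Near Pepd, 0 of 18 genes within 1 Mb and 0 of 63 within 5 Mb were called. Within 10 Mb it was 6 of 188 (Cyp2a22, Cyp2b10, Grik5, Lgals4, Lipe and Zfp574). The shares on chromosome 7 and within 10 Mb lay near that over all genes.

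The WT livers on HFD give another genotype, and they share the KO and HET libraries with the comparison above, so only values are given. Cyp2b10 averaged 83.6 ± 46.3 CPM in KO, 2.16 ± 1.40 CPM in HET and 1.30 ± 0.86 CPM in WT livers (SD, n = 9, 10 and 8). Cyp2c29 averaged 2987 CPM in KO, 565.2 CPM in HET and 581 CPM in WT livers. Col1a1 averaged 3.95 CPM in KO, 13.9 CPM in HET and 14.8 CPM in WT livers. Plin2 averaged 743 CPM in KO, 1126 CPM in HET and 1159.9 CPM in WT livers. In some other named genes the WT average lay further from HET, towards KO. Pnpla3 averaged 41.1 CPM in KO, 6.95 CPM in HET and 12.6 CPM in WT livers. Cyp4a12b averaged 136 CPM in KO, 40.6 CPM in HET and 67.9 CPM in WT livers, and Lrp2 3.99, 1.04 and 2.15 CPM. Between KO and WT livers 220 genes (1.98%) were called, and between HET and WT livers 1 (0.009%), which was Pepd. By edgeR 0 were higher, with 406 higher at an unadjusted p under 0.05.

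Other mice tested the same genotypes on other diets. On the Alios diet, with 8 KO and 5 HET livers, 33 of 11595 genes (0.285%) were called, and of the 68 named genes called on HFD besides Pepd 7 were called there in the same direction and 0 in the opposite one. Cyp2b10 averaged 54.0 ± 15.4 CPM in Alios KO livers and 1.40 ± 2.10 CPM in Alios HET livers (log2 4.90 ± 0.51, edgeR adjusted p = 1.1e-06), and Cyp2c29 changed by 2.37 ± 0.32 (edgeR adjusted p = 1.1e-04). Rad51b, Defb1, Osbpl3, Slco1a4 and Postn were the others, all lower. Of the 145 genes higher on HFD, 115 had a positive change on Alios, where 49.99% of all genes did, and of the 179 lower ones 159 had a negative change, where 49.89% did. Pnpla3 (log2 0.41, edgeR adjusted p = 0.79) and Noct (log2 -0.70, edgeR adjusted p = 0.63) were not called on Alios. The Alios KO group holds a library of only 42692 counts; without it 5 of the 68 genes were called.

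On chow, with 5 KO and 8 HET livers, 1440 genes (13.0%, with 7.65% higher and 5.31% lower) were called, and 10 of the 68 genes were called in the same direction and 1, Irf7, in the opposite one. Cyp2b10 was 31.2 ± 23.8 CPM in chow KO livers and 5.22 ± 6.64 CPM in chow HET livers (log2 2.54 ± 0.48, edgeR adjusted p = 5.5e-04). Cyp2c29 was not called on chow, at 1648 ± 859 CPM in KO and 1411 ± 314.3 CPM in HET livers (edgeR adjusted p = 0.67). Col1a1 (log2 0.14, edgeR adjusted p = 0.90) and Acly (log2 -0.55, edgeR adjusted p = 0.28) were not called there. Of the 145 genes higher on HFD, 102 had a positive change on chow, where 50.83% of all genes did. Of the 179 lower ones, 137 had a negative change on chow, where 49.16% did. The KO minus HET change differed between HFD and chow for 344 genes (3.10%, with 0.900% higher and 2.20% lower), among them Cyp2c29, whose change was larger on HFD by 2.18 ± 0.42 (edgeR adjusted p = 0.010), Pnpla3 (by 3.52 ± 0.99, edgeR adjusted p = 0.040) and Col1a2, whose change was lower by 1.74 on the log2 scale (difference -1.74 ± 0.46, edgeR adjusted p = 0.029). The count depended on single chow libraries: without chow KO 2 it was 0 by edgeR, with 1723 genes at an unadjusted p under 0.05, without KO 5 it was 66, without KO 3 143, without KO 1 608 and without KO 4 772. Without chow KO 2 the difference was 2.01 ± 0.43 for Cyp2c29 (edgeR adjusted p = 0.063), 4.26 ± 1.10 for Pnpla3 (0.079) and -1.63 ± 0.49 for Col1a2 (0.11).

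**Figure D5:**
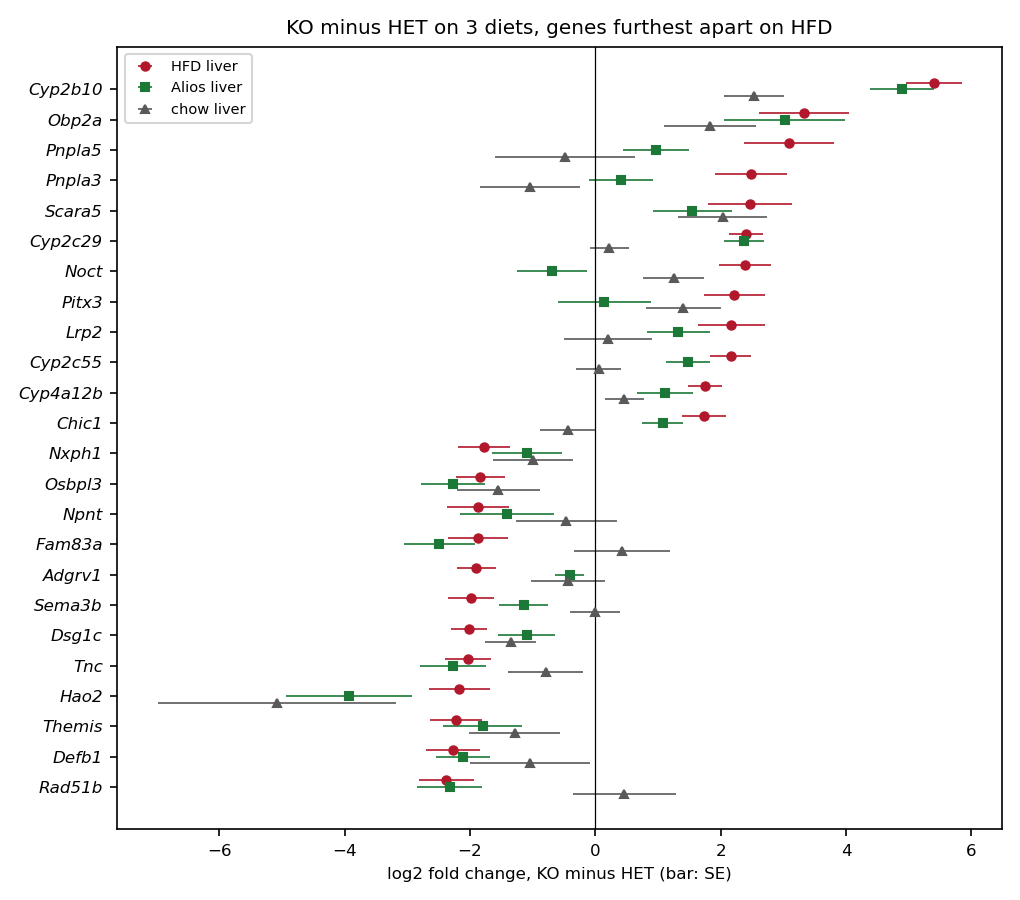
Log2 fold change of KO minus HET (bars, SE) in liver on HFD, Alios and chow for the 12 genes furthest up and the 12 furthest down among called genes on HFD. Cyp2b10 is higher on all 3 diets, Cyp2c29 lies at 2.40 on HFD, 2.37 on Alios and 0.22 on chow, and Noct lies at 2.39 on HFD and -0.70 on Alios.

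Gonadal adipose tissue of the same mice, with 9 KO and 10 HET mice, had 2 of 14517 genes called (0.0138%, with 0.00689% higher and 0.00689% lower) and 7 whose groups did not overlap (0.0482%), and 0 of the 61 named genes tested there were called by edgeR or DESeq2, with 6 at an unadjusted p under 0.05. Pepd averaged 25.2 ± 6.69 CPM in KO and 65.5 ± 4.26 CPM in HET adipose tissue, 2.60-fold lower, against 14.1-fold lower in liver, so the adipose libraries labelled KO kept more Pepd reads than the liver ones. Cyp2b10 had a log2 change of 0.93 in adipose tissue (edgeR adjusted p = 0.76).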

How the data were processed

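RNA was sequenced from liver and gonadal adipose tissue. Per the labels' protocols, RNA of integrity above 7 went into stranded mRNA libraries read as single ends. The submitters' processing notes list STAR 2.5.1b, featureCounts 1.5 and build GRCm38.p5, with no role, setting, strand option or annotation. What the authors deposited are raw counts per Ensembl gene: every value is whole and library totals differ. Reads of near-identical copies (Cyp2b, Cyp2c, Cyp4a12, Gstp, Saa and Serpina1 genes), overlapping and antisense genes may be split or lost, so such values are uncertain.

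Of 25759 genes per table, 25723 had a symbol in GENCODE M21. Groups were taken from the labels; 1 column with no label was not used. The tests ran in edgeR 4.0.16 under R 4.3.3, with the expression filter (minimum count 10, minimum total 15), TMM, and the two-sided quasi-likelihood test in a fit of 45 chow and HFD liver libraries, with separate fits for 29 Control and Alios libraries and 44 adipose libraries. SE is the size of the change divided by the square root of F. Within the KO and HET groups on HFD no pair of libraries agreed within sampling noise (81 pairs, chi-square per degree of freedom at least 3.36). Whether mice shared cages or litters is not given, so p-values measure the spread between these samples. The test was first run on simulated counts.

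Members, gene lists and tests were chosen with earlier results of these data known. The genes named are Pepd, the 12 highest and 12 lowest log2 changes among called genes of at least 1 CPM (no predicted genes), up to 3 called members of each of 50 lists, and, whatever their call, Egfr, Cyp2b10, Cyp2c29, Cyp2c55, Col1a1, Cidea, Pparg, Plin2 and Usp18. Other called list members are named with their list, after their values were seen. Promoters are RefSeq's, GRCm38.p6. The alternatives were DESeq2 1.42.0, RLE factors, other filters, other sets of groups, a replicate block, a covariate for the run of mouse numbers and libraries left out.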

Additional observations from a re-analysis of the deposited data

Results flagged for a closer look

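Single libraries stood far from the rest of their group in 19 of 142 groups of named-gene levels. For normally distributed values the rule would flag about 1 in 20 groups. It was run on CPM without logs, where this rate may not hold, so the 19 cannot be set against it. Among KO libraries, KO 2 was highest for Scara5 (152 CPM). KO 3 was highest for Themis (9.33 CPM), Hao2 (4.95 CPM) and Gsta1 (10.9 CPM). KO 8 was highest for Ugt2b1 (1059.8 CPM), Cyp7b1 (716 CPM), C6 (598 CPM) and Cyp1a2 (835 CPM), and KO 7 was lowest for Perp (71.0 CPM). Among HET libraries, HET 7 was highest for Scara5 (13.2 CPM) and Elovl3 (327 CPM). HET 5 was highest for Obp2a (2.83 CPM) and Selenos (76.4 CPM), HET 6 for Hao2 (15.4 CPM), HET 2 for Cpt1a (957 CPM), HET 4 for Mmp12 (26.7 CPM) and HET 9 for Ifi44 (7.67 CPM). HET 10 was lowest for Gstp1 (36.9 CPM) and HET 3 for Perp (98.2 CPM).

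The KO minus HET change differed between HFD and chow for 12 named genes by edgeR's test of the difference. It was larger on HFD by a log2 difference of 2.87 for Cyp2b10, 3.52 for Pnpla3, 2.18 for Cyp2c29, 2.11 for Cyp2c55, 2.17 for Chic1, 1.15 for Acaca, 1.76 for Acly and 0.70 for Kynu. The difference was -1.74 for Col1a2, -1.26 for Usp18, -1.41 for Irf7 and -2.62 for Saa3. Without chow KO 2, 0 genes of the whole table were called for this difference by edgeR, with 1723 at an unadjusted p under 0.05.

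Outside the comparison, the library labelled HET that was left out had 174 CPM of Cyp2b10, above the highest HET library at 3.94 CPM.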

How the results depend on the processing

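The 325 genes called between KO and HET livers on HFD became 515 with those groups fitted alone, 139 with a replicate block, 127 within the mice of lower numbers, 2 within those of higher numbers, 130 without HET 4 and HET 9, and 82 at an adjusted p under 0.01. Leaving out each library gave 202 (without HET 4) to 412 (without HET 3) genes, with 208 without HET 2, 211 without HET 9 and 214 without HET 10. DESeq2 called 439, and the other settings gave 229 to 421. Of the 325 genes, 254 were also called with HET 8 kept as labelled. The 344 genes whose change differed between HFD and chow became 211 with no filter on low counts, 222 with the replicate block, and 0 (without chow KO 2) to 772 (without chow KO 4) when each chow KO library was left out, with 608 without chow KO 1, 143 without KO 3 and 66 without KO 5. The 10 named genes called on chow became 5 with only the groups compared, and 3 (without chow KO 2 or KO 5) to 15 when a chow KO library was left out, with 5 without KO 3. The 7 called on Alios became 2 with the replicate block, and 2 (without Alios HET 1 or HET 4) to 10 when an Alios HET library was left out. In adipose tissue 0 were called under every alternative run. The cause of these shifts was not tested, beyond fewer libraries where some were left out. Replicate numbers did not pair the mice: over 8 pairs the correlation of deviations ran from -0.26 to 0.09, 0 were over 0.1 and 0 mice correlated best with their own number. For single genes, 1997 of 2379 alternatives kept direction and call, 375 lost the call, 7 gained it and 0 reversed. Alternatives that gave a gene no adjusted p, as where it failed the filter on low counts, are not among the 2379. Of 68 named called genes, 46 stayed called in every refit without 1 of the 19 libraries that tested them. Among these, Pnpla5 was tested in only 15 refits. With only the KO and HET groups fitted, 59 of the 68 were called. Scara5 was tested there and not called, and the others did not pass the filter. In the shallowest library 1 read is 0.974 CPM, which limits genes near 1 CPM.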
